A study of Homo sapiens with 15 samples.

Results

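The DEAD and DEAH box proteins are the largest family of RNA helicases, named after the amino acids of a motif in their ATP-binding core. Every protein-coding gene of the array annotation whose symbol starts with DDX or DHX and a digit was taken, with DDX3Y left out. Only array features that name a single gene were used. This gave 47 of the 14812 named genes on the array, 31 DDX and 16 DHX genes. The rule uses names alone, though the family and the roles given to its members were chosen with earlier results of these data known. DHX16, the one member with several features (8), was read at its brightest. The cells were MV4-11, an established human acute myeloid leukaemia line that carries a KMT2A-AFF1 fusion and an internal duplication in FLT3. All 5 groups were cultures of this single line held for 24 h with the solvent DMSO alone, OTX015 at 300 nM, DW71177 at 300 nM, DW71374 at 300 nM or RVX208 at 5 uM, and each group had 3 arrays of total RNA. OTX015 (birabresib) occupies both acetyl-lysine binding bromodomains of the BET proteins, and RVX208 (apabetalone) prefers the second of them. DW71177 and DW71374 are known here by their code names only.

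These helicases use ATP to unwind short RNA duplexes or to strip proteins from RNA. Different members act at separate steps of an RNA's life: the nucleolar ones fold and trim ribosomal RNA, the spliceosomal ones drive each rearrangement of the splicing machinery, and others export, translate or decay mRNA, process mitochondrial RNA, or sense viral RNA. BET proteins bind acetylated chromatin and promote transcription by RNA polymerase II, among others of MYC, whose protein binds E-box sequences and activates many ribosome assembly genes.

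The promoters of the members that later results turn on are shown first, as the 150 bases before an annotated RefSeq start site (assembly GRCh38.p14), read 5′ to 3′ on the gene's strand. Capitals mark an E-box, CACGTG, the MYC binding sequence, or CCGGAAGT, an ETS-type sequence that was chosen after these sequences had been read. DDX21 and DDX50 are a paralogous pair that lie beside each other on chromosome 10, DDX31 and DDX54 are members that fell and carry an E-box near a start site, and DDX19A and DDX19B are a pair on chromosome 16 with neither motif in the bases printed.
DDX21, chr10:68956020-68956169, plus strand: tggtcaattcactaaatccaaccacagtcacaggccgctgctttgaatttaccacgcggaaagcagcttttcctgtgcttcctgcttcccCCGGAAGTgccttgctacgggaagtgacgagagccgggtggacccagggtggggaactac
DDX50, chr10:68901165-68901314, plus strand: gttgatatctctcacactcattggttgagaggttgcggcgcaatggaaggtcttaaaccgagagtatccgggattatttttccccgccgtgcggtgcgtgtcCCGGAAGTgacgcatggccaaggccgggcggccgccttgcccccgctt
DDX31, chr9:132669984-132670133, minus strand: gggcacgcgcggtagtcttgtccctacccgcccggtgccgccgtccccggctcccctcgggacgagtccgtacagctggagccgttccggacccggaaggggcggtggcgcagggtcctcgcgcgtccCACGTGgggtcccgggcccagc
DDX54, chr12:113185479-113185628, minus strand: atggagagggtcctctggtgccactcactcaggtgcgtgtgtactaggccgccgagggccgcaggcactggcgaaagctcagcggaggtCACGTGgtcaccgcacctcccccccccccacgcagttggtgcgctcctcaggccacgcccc
DDX19A, chr16:70346753-70346902, plus strand: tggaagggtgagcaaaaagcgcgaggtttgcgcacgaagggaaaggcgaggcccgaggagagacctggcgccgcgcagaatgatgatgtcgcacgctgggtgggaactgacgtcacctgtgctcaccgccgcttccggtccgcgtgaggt
DDX19B, chr16:70294627-70294776, plus strand: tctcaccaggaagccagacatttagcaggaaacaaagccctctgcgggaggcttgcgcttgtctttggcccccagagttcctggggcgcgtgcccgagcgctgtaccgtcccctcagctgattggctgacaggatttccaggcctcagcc
The CCGGAAGT of DDX21 begins at position -60 and that of DDX50 at position -48, counted from the start site with the base before it as -1. The E-box of DDX31 begins at position -22 and that of DDX54 at position -61. DDX21 has a second annotated start site, and an E-box begins at position -31 before that one. DDX31 and DDX19B each have 2 further annotated start sites, and the 150 bases before each of those hold neither motif. Of the 3 DDX19B sites, the one printed lies furthest upstream, so it is not its only promoter.

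A window of 250 bases before a start site was held for 43 of the 47 members, and DDX49, DDX52, DHX33 and DHX58 had none. An E-box, which reads the same on both strands, stood in a window of 9 of the 43 members (20.9%): DDX5, DDX21, DDX25, DDX31, DDX54, DHX32, DHX34, DHX35 and DHX40. It stood in 9.73% of the 15843 protein-coding genes with a window and in 6.34% of all 35116 windows. Among members with a window, the E-box was in 5 of 19 that fell with OTX015, in 0 of 3 that rose and in 4 of 21 that did not pass the test. CCGGAAGT, searched on both strands, stood in 6 of 43 members (13.95%), DDX5, DDX21, DDX50, DDX56, DHX8 and DHX30, against 5.82% of protein-coding genes. This sequence was chosen after promoters of the members had been read, so its higher share among them tests nothing. The 2 motifs do not overlap in letters, and a match of letters is a description only.

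Levels are log2 signals as deposited, so a difference of 1 is a doubling, and levels of different genes cannot be set against each other on an array. Across all genes, replicate arrays correlated at 0.992 to 0.995 (Pearson, across genes) and the array medians lay between 3.72 and 3.79. A gene was called when its limma p-value, adjusted over all 14812 genes by the Benjamini-Hochberg method, was under 0.05. Of the 8 myeloid markers listed, 5 were measured, and 4 of them had a mean of at least 5 in every group. Their summed log2 level was 38.6 to 39.2 in the DMSO arrays, 39.0 to 39.1 with DW71374, 37.3 to 37.5 with RVX208, 36.2 to 36.4 with DW71177 and 35.9 to 36.1 with OTX015. With OTX015 and with DW71177, 1 of the 5 (CD68) rose and 4 fell, and with RVX208 0 rose and 3 fell. Of all genes, 25.7% were called with OTX015, 19.8% with DW71177 and 6.52% with RVX208. Of genes with a mean of at least 5, 47.8%, 37.7% and 12.5% were called. The markers' part in the results that follow was not tested. Of the listed markers of other cell types, 1 of 6 lymphoid, 2 of 6 erythroid and megakaryocyte, and 5 of 8 epithelial and stromal genes were measured, of which 1 erythroid and megakaryocyte marker fell with OTX015 and no lymphoid, epithelial or stromal marker was called. Fewer cells and less RNA per cell cannot be told apart in such bulk samples. The labels' protocol speaks of triplicate treatment in multi-well plates and does not say whether the 3 arrays of a group are separate cultures or repeats of one, so the p-values reflect array-to-array spread that may be technical.

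With OTX015, 21 of the 47 helicases fell and 3 rose against DMSO, 51.1% of the family where 25.7% of all genes were called. By direction, 44.7% of the helicases fell against 14.5% of all genes, and 6.38% rose against 11.2%. Most helicases are bright on this array and bright genes were called more often, so the 6736 genes with a mean log2 signal of at least 5 were counted too. There, 21 of 39 helicases fell and 2 rose, where 27.6% of the genes fell and 20.2% rose. The median difference was -0.24 over these 39 helicases, -0.12 over all 47 and -0.0038 over all 14812 genes. In 30 of 47 helicases the OTX015 and DMSO arrays did not overlap, against 36.2% of all genes. Among the bright genes there was no overlap in 29 of 39 helicases and in 4136 of the 6736 genes.

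With DW71177 at the same dose, 14 helicases fell and 2 rose, 34.0% of the family against 19.8% of all genes. By direction, 29.8% of the helicases fell against 9.88% of all genes, and 4.26% rose against 9.95%. Among the bright genes, 14 of 39 helicases fell and 1 rose, where 18.9% of the genes fell and 18.8% rose. The median difference was -0.086 over the 47 helicases and -0.0059 over all genes, and the arrays did not overlap with DMSO in 26 of 47 helicases against 32.6% of all genes. Among the bright genes there was no overlap in 25 of 39 helicases and in 3723 of the 6736 genes. With RVX208 at its own dose of 5 uM, 3 helicases fell and 0 rose, 6.38% of the family against 6.52% of all genes, of which 3.11% fell and 3.41% rose. Among the bright genes, 7.69% of the 39 helicases were called against 12.5% of the 6736 genes. The RVX208 count dropped to 1 without DMSO replicate 1 or 3 or RVX208 replicate 1 or 3. With DW71374, limma called 0 of 47 helicases and 0% of all genes, and 0 helicases had an unadjusted p under 0.05 against 686 of all genes. All of these comparisons share the 3 DMSO arrays.

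**Figure D1:**
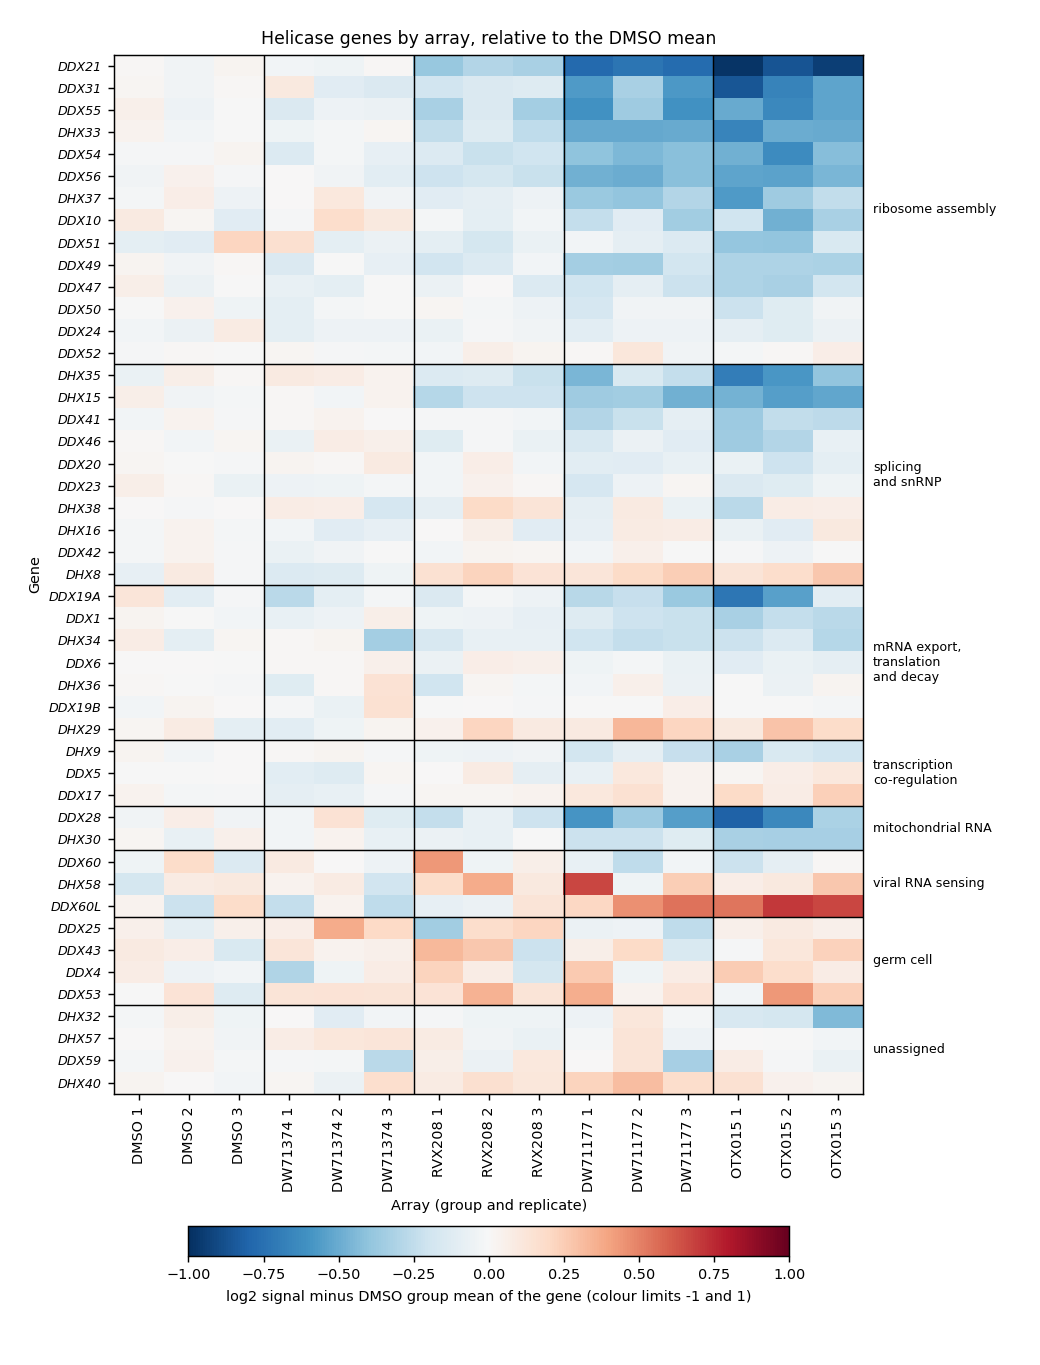
Log2 signal of each of the 47 helicases (rows, ordered by role) on each of the 15 arrays (columns, by group), drawn as the difference from the mean of the 3 DMSO arrays. The deepest fall with OTX015 is the -0.93 of DDX21, a ribosome assembly gene, while the DW71374 columns stay within -0.15 to 0.21 of DMSO in their means.

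**Figure D2:**
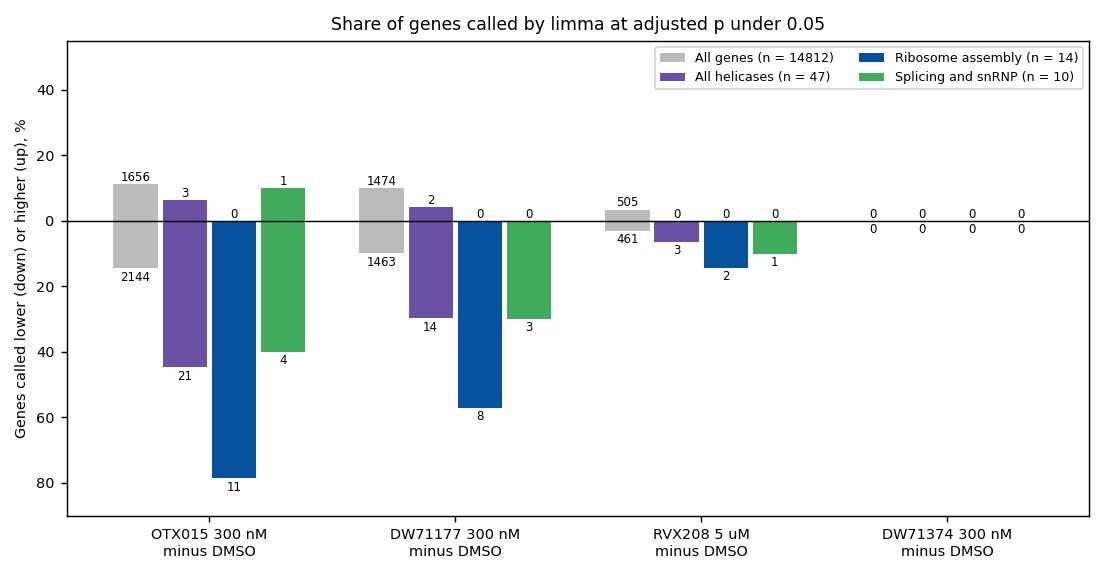
Share of genes (percent) that limma called higher or lower than DMSO in each compound group, for all 14812 genes, the 47 helicases, the 14 ribosome assembly helicases and the 10 splicing and snRNP helicases. With OTX015, 78.6% of the ribosome assembly helicases were lower against 14.5% of all genes, and with DW71374 every share is 0.

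The helicases of ribosome assembly were 14 members that work mostly in the nucleolus. OTX015 lowered 11 of them and raised 0, with a median log2 difference of -0.36, so 78.6% fell against 14.5% of all genes and 27.6% of those with a mean of at least 5. DW71177 lowered 8 (median -0.32), or 57.1%, against 9.88% of all genes and 18.9% of those with a mean of at least 5. RVX208 lowered 2 (median -0.12), or 14.3%, against 3.11% and 5.73%. DDX24, DDX50 and DDX52 passed the test with no compound, and DDX10, DDX47 and DDX51 passed it against DMSO with OTX015 only; none of these 3 passed between DW71177 and OTX015.

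DDX21, a nucleolar helicase that serves both ribosomal RNA transcription and its processing, had the largest fitted change against DMSO of any member in the OTX015, DW71177 and RVX208 groups. Its log2 signal was 9.77, 9.72 and 9.78 with DMSO, 9.73, 9.71 and 9.77 with DW71374, and 9.38, 9.47 and 9.43 with RVX208. It was 8.98, 9.03 and 8.99 with DW71177, and 8.78, 8.89 and 8.81 with OTX015. The DMSO and DW71374 arrays overlapped, and every RVX208, DW71177 and OTX015 array lay below the lowest DMSO array. The dose of RVX208 was not that of the others, so here and later its values stand beside theirs without a comparison. The fall against DMSO was -0.93 ± 0.053 (log2, SE, n = 3 per group) with OTX015, or 1.90-fold (limma adjusted p = 2.9e-08). It was -0.76 ± 0.053 with DW71177, or 1.69-fold (limma adjusted p = 4.3e-07), and -0.33 ± 0.053 with RVX208, or 1.26-fold (limma adjusted p = 0.0017). These 3 calls held whichever single array was left out.

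DDX31, a nucleolar helicase of ribosome assembly, had signals of 6.25, 6.19 and 6.24 with DMSO and 5.37, 5.56 and 5.70 with OTX015. DW71177 gave 5.66, 5.90 and 5.65, RVX208 gave 6.04, 6.09 and 6.10, and DW71374 gave 6.32, 6.11 and 6.08. Every OTX015, DW71177 and RVX208 array lay under the lowest DMSO array, and the DW71374 arrays spread around the DMSO values. The difference was -0.68 ± 0.092 with OTX015 (1.61-fold, limma adjusted p = 6.4e-05), -0.49 ± 0.092 with DW71177 (1.40-fold, limma adjusted p = 0.0016) and -0.15 ± 0.092 with RVX208, which did not pass (limma adjusted p = 0.40).

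DDX55, whose yeast counterpart acts on the large ribosomal subunit, had 7.31, 7.21 and 7.25 with DMSO, 6.75, 6.61 and 6.73 with OTX015 and 6.65, 6.90 and 6.65 with DW71177. RVX208 gave 6.93, 7.11 and 6.92 and DW71374 gave 7.11, 7.20 and 7.20. All arrays of all 4 compounds were below the lowest DMSO array, but by different distances. The fall was -0.56 ± 0.079 with OTX015 (1.47-fold, limma adjusted p = 0.0001) and -0.52 ± 0.079 with DW71177 (1.43-fold, limma adjusted p = 0.00029). RVX208 gave -0.27 ± 0.079, which did not pass (limma adjusted p = 0.060), and DW71374 gave -0.08.

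DHX33, which takes part in ribosomal RNA synthesis, had 7.65, 7.59 and 7.61 with DMSO, 6.95, 7.12 and 7.11 with OTX015, and 7.10, 7.10 and 7.11 with DW71177. With RVX208 it had 7.37, 7.49 and 7.36, and with DW71374 7.57, 7.60 and 7.64. OTX015 and DW71177 shared a low range below DMSO, and the RVX208 arrays were also below the lowest DMSO array. The limma adjusted p was 8.1e-06 for OTX015 (1.47-fold lower) and 3.2e-05 for DW71177 (1.42-fold lower), and RVX208 at -0.21 ± 0.059 just missed the threshold (limma adjusted p = 0.051).

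DDX56, a nucleolar helicase of large subunit assembly, had 8.30, 8.38 and 8.32 with DMSO, 7.81, 7.80 and 7.87 with OTX015, 7.85, 7.84 and 7.91 with DW71177, and 8.13, 8.16 and 8.11 with RVX208. DW71374 gave 8.34, 8.30 and 8.23, of which 1 array lay within the DMSO range and 2 lay below it. It fell 1.42-fold with OTX015 (-0.51 ± 0.053, limma adjusted p = 6.6e-06), 1.38-fold with DW71177 (limma adjusted p = 2.7e-05) and 1.15-fold with RVX208 (-0.20 ± 0.053, limma adjusted p = 0.037). The RVX208 call was lost without any 1 of the DMSO or RVX208 arrays or the DW71374 replicate 2 (limma adjusted p between 0.053 and 0.13).

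Among the other ribosome assembly members, DDX54 fell by 0.51 with OTX015 and 0.42 with DW71177, from 8.01, 8.01 and 8.05 with DMSO to 7.54, 7.40 and 7.60 and to 7.62, 7.57 and 7.61. DHX37, which acts with the small subunit precursor, differed by -0.39 with OTX015 and -0.35 with DW71177, and DDX49 by -0.31 and -0.29, and both fell with both compounds. DDX10, whose yeast counterpart works on the small subunit, had 7.30, 7.24 and 7.10 with DMSO, 7.02, 6.74 and 6.89 with OTX015, 6.97, 7.10 and 6.87 with DW71177, 7.20, 7.12 and 7.19 with RVX208 and 7.20, 7.39 and 7.31 with DW71374. The OTX015 arrays of DDX10 lay under all DMSO arrays, and the highest DW71177 array equalled the lowest DMSO array. Its difference was -0.33 ± 0.086 with OTX015 (limma adjusted p = 0.0097) and -0.23 ± 0.086 with DW71177 (limma adjusted p = 0.077). DDX51, of large subunit RNA processing, fell by 0.31 with OTX015, a call lost without DMSO replicate 3 or OTX015 replicate 1 or 2 (limma adjusted p between 0.11 and 0.15). DDX47 fell by 0.27 with OTX015. DDX24 differed by -0.09 and DDX52 by 0.02 with OTX015, and neither passed.

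**Figure D3:**
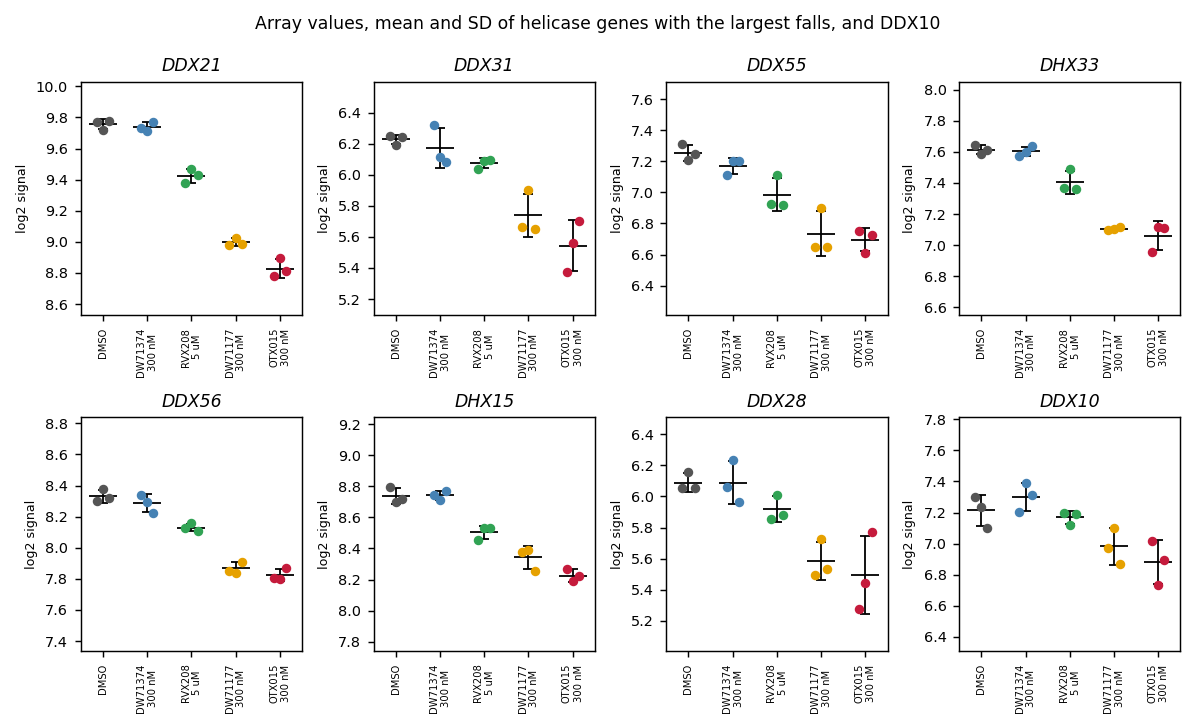
Log2 signal on each array (points) with the group mean ± SD (bars, n = 3) for DDX21, DDX31, DDX55, DHX33, DDX56, DHX15, DDX28 and DDX10 in the 5 groups. For DDX21 the OTX015 arrays reach down to 8.78 while DMSO and DW71374 lie between 9.71 and 9.78, and RVX208, at its own dose, lies at 9.38 to 9.47.

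**Figure D4:**
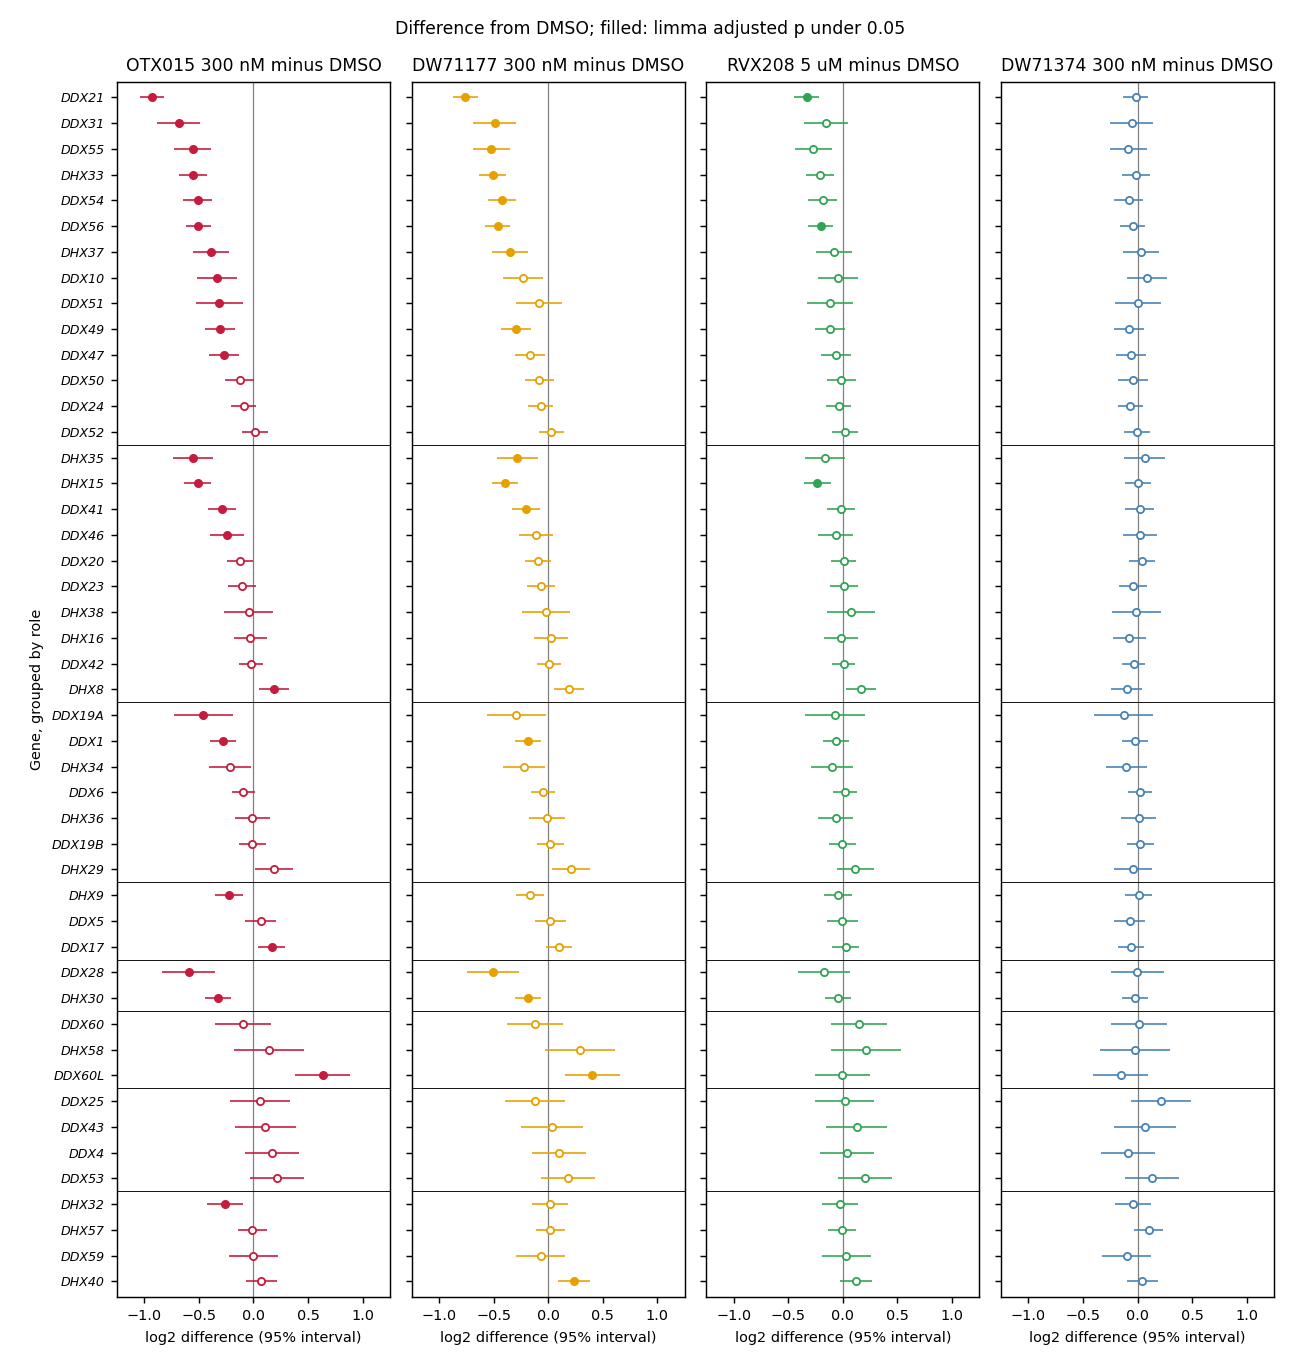
Difference from DMSO (log2, x axis) of each helicase with its 95% interval from the limma fit, 1 panel for each compound, and filled points for members called. OTX015 has 24 filled points and DW71177 16, most left of 0, RVX208 has 3 and DW71374 has 0.

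The helicases of splicing and of snRNP assembly were 10 members. With OTX015, 4 fell (DHX15, DHX35, DDX41 and DDX46) and 1 rose (DHX8), with a median of -0.11. The 50% called stands against 25.7% of all genes and 47.8% of genes with a mean of at least 5, so it is near the share of the bright genes. With DW71177, DHX15, DHX35 and DDX41 fell, and with RVX208 DHX15 fell. DDX20, DDX23, DDX42, DHX16 and DHX38 passed with no compound against DMSO.

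DHX15, which takes apart the spliceosome after the reaction and also works in ribosome assembly, had 8.80, 8.70 and 8.72 with DMSO and 8.75, 8.71 and 8.77 with DW71374. It had 8.46, 8.53 and 8.53 with RVX208, 8.38, 8.39 and 8.26 with DW71177, and 8.27, 8.19 and 8.22 with OTX015. RVX208, DW71177 and OTX015 arrays were all below DMSO. The fall was -0.51 ± 0.056 with OTX015 (limma adjusted p = 1e-05), -0.40 ± 0.056 with DW71177 (limma adjusted p = 0.00017) and -0.23 ± 0.056 with RVX208 (limma adjusted p = 0.025). The RVX208 call was lost without DMSO replicate 1 or 3 or any 1 RVX208 array (limma adjusted p between 0.056 and 0.10).

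DHX35, found in spliceosomes during the catalytic steps, was singled out after its values were seen. It had 6.28, 6.40 and 6.36 with DMSO, 5.66, 5.77 and 5.95 with OTX015, and 5.89, 6.20 and 6.11 with DW71177, with no overlap with DMSO in either. RVX208 gave 6.21, 6.22 and 6.12, also all below DMSO though not called, and DW71374 gave 6.43, 6.42 and 6.39. It fell 1.47-fold with OTX015 (limma adjusted p = 0.00023) and 1.22-fold with DW71177 (limma adjusted p = 0.033), the latter call lost without DMSO replicate 2 or 3 or DW71177 replicate 1 or 3 (limma adjusted p between 0.053 and 0.14). DDX41, a spliceosomal helicase mutated in some myeloid leukaemias, fell by 0.29 with OTX015 and by 0.20 with DW71177. Its DW71177 call was lost without any 1 DMSO array or DW71177 replicate 1 or 2 (limma adjusted p between 0.051 and 0.11). DDX46, which helps the branch point to be recognised, fell by 0.24 with OTX015, a call lost without DMSO replicate 1 or 3 or OTX015 replicate 1 or 2 (limma adjusted p between 0.064 and 0.11).

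DHX8, which releases spliced mRNA, was the splicing helicase that moved up. It had 7.93, 8.10 and 8.00 with DMSO, 8.14, 8.18 and 8.28 with OTX015, 8.13, 8.20 and 8.25 with DW71177, 8.16, 8.23 and 8.14 with RVX208, and 7.87, 7.88 and 7.97 with DW71374. All arrays of OTX015, DW71177 and RVX208 exceeded every DMSO array. OTX015 gave 0.19 ± 0.064 (limma adjusted p = 0.041), DW71177 0.19 ± 0.064 (limma adjusted p = 0.055) and RVX208 0.17 ± 0.064 (limma adjusted p = 0.14). The OTX015 call was lost without any 1 of 8 arrays, DMSO replicates 1 and 3, DW71374 replicates 1 and 2, OTX015 replicates 2 and 3 and RVX208 replicates 1 and 3 (limma adjusted p between 0.050 and 0.16).

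Of the 7 helicases of mRNA export, translation and decay, OTX015 lowered DDX1 and DDX19A, DW71177 lowered DDX1, and RVX208 changed 0. The 28.6% lower with OTX015 is near the 27.6% of genes with a mean of at least 5. DDX1, which belongs to the tRNA ligase complex, fell by 0.28 with OTX015 and by 0.19 with DW71177. The latter call was lost without DMSO replicate 1 or 2 or DW71177 replicate 2 or 3 (limma adjusted p between 0.068 and 0.093). DHX29, which helps ribosomes scan structured leaders, stood at 0.19 with OTX015 and 0.21 with DW71177 and did not pass against DMSO, and DHX34, of nonsense-mediated decay, stood at -0.21 and -0.22, also without passing. DDX6, of mRNA decapping and repression, and DHX36, which unwinds G-quadruplexes, lay within -0.09 to 0.02 of DMSO in all 4 comparisons.

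Of the 3 transcription co-regulators, OTX015 lowered DHX9 and raised DDX17, and DW71177 and RVX208 changed 0. With OTX015, 25.7% of all genes and 47.8% of genes with a mean of at least 5 were called. DHX9 had 9.35, 9.30 and 9.33 with DMSO, 9.00, 9.17 and 9.12 with OTX015 and 9.14, 9.24 and 9.09 with DW71177. RVX208 gave 9.28, 9.27 and 9.29 and DW71374 gave 9.33, 9.35 and 9.32. All OTX015, DW71177 and RVX208 arrays of DHX9 lay under the lowest DMSO array, those of RVX208 narrowly. The DHX9 difference was -0.22 ± 0.058 with OTX015 (limma adjusted p = 0.010, or 0.052 without OTX015 replicate 1) and -0.17 ± 0.058 with DW71177 (limma adjusted p = 0.060). DDX17 had 9.24, 9.19 and 9.20 with DMSO and 9.40, 9.28 and 9.44 with OTX015. DW71177 gave 9.32, 9.36 and 9.24, RVX208 gave 9.23, 9.23 and 9.25 and DW71374 gave 9.12, 9.13 and 9.19. Its OTX015 difference was 0.17 ± 0.057 (limma adjusted p = 0.045), and the call was lost without any 1 of 12 of the 15 arrays (limma adjusted p between 0.052 and 0.16), all but DW71177 replicates 2 and 3 and OTX015 replicate 2.

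DDX5, the close relative of DDX17, read 9.83 on each DMSO array, 9.85, 9.90 and 9.94 with OTX015, 9.75, 9.94 and 9.86 with DW71177, 9.83, 9.91 and 9.74 with RVX208 and 9.72, 9.70 and 9.85 with DW71374. The OTX015 difference of DDX5 was 0.07, with a 95% interval of -0.08 to 0.21 (limma adjusted p = 0.57).

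Both mitochondrial helicases fell with OTX015 and with DW71177 and did not pass with RVX208. Of all genes, 14.5% fell with OTX015 and 9.88% with DW71177, and of genes with a mean of at least 5, 27.6% and 18.9%. DDX28, of mitochondrial ribosome assembly, had 6.05, 6.16 and 6.06 with DMSO, 5.28, 5.44 and 5.77 with OTX015 and 5.50, 5.72 and 5.54 with DW71177. RVX208 gave 5.85, 6.01 and 5.88, and DW71374 gave 6.06, 6.24 and 5.97. No OTX015, DW71177 or RVX208 array reached the DMSO range. DDX28 fell 1.51-fold with OTX015 (-0.59 ± 0.112, limma adjusted p = 0.0011) and 1.42-fold with DW71177 (-0.50 ± 0.112, limma adjusted p = 0.0050). DHX30, of the mitochondrial RNA granules, fell by 0.33 with OTX015 and by 0.18 with DW71177, the latter call being lost without DMSO replicate 1 or 3 or DW71177 replicate 1 or 2 (limma adjusted p between 0.087 and 0.12).

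Of the 3 members tied to viral RNA sensing, DDX60L was called, and all 3 had means under 5. Of all genes, 11.2% rose with OTX015 and 9.95% with DW71177. DDX60L, an interferon-induced helicase, had 2.56, 2.31 and 2.71 with DMSO, 2.29, 2.56 and 2.27 with DW71374, and 2.44, 2.47 and 2.66 with RVX208. It had 2.74, 2.99 and 3.07 with DW71177 and 3.06, 3.24 and 3.20 with OTX015, so these arrays were all above DMSO. OTX015 gave 0.64 ± 0.118 (limma adjusted p = 0.00093) and DW71177 gave 0.40 ± 0.118 (limma adjusted p = 0.025), the latter lost without DMSO replicate 1 or 2 or DW71177 replicate 2 or 3 (limma adjusted p between 0.052 and 0.12). DHX58, a regulator of the RIG-I-like receptors, had 4.17, 4.43 and 4.44 with DMSO, 4.41, 4.44 and 4.62 with OTX015, 5.01, 4.31 and 4.59 with DW71177, 4.53, 4.72 and 4.44 with RVX208 and 4.39, 4.43 and 4.16 with DW71374, and did not pass in any comparison.

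The 4 germ cell members, DDX4, DDX25, DDX43 and DDX53, were dim and limma called 0 of them in any comparison with DMSO, with 0 at an unadjusted p under 0.05 for OTX015 and DW71177. DHX32, DHX40, DHX57 and DDX59 were given no role. DHX40 had 7.38, 7.36 and 7.33 with DMSO, 7.58, 7.67 and 7.53 with DW71177 and 7.51, 7.40 and 7.38 with OTX015. RVX208 gave 7.44, 7.52 and 7.47 and DW71374 gave 7.38, 7.30 and 7.52. It rose with DW71177 by 0.24 ± 0.066 (limma adjusted p = 0.021), a call lost without DMSO replicate 2 or 3 or DW71177 replicate 2 (limma adjusted p between 0.053 and 0.082). DHX32 fell by 0.26 with OTX015, a call lost without DMSO replicate 2 or OTX015 replicate 3 (limma adjusted p of 0.081 to 0.094).

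The study's compounds can be compared at 300 nM in 3 pairs, and p-values were adjusted over all genes within each pair. Between DW71177 and OTX015, limma called 0 of 47 helicases, where 1.26% of all genes were called (1.07% higher and 0.182% lower with DW71177), and 6 helicases had an unadjusted p under 0.05 against 2032 of the 14812 genes, a like share. The 95% interval of every one of the 47 differences lay within 1.5-fold either way. This does not show that the compounds act alike on these genes. The smallest limma adjusted p was 0.11, for DHX32, which was 0.27 ± 0.077 higher with DW71177 than with OTX015. DHX35 was 0.27 ± 0.086 higher (limma adjusted p = 0.16) and DDX21 was 0.17 ± 0.053 higher, with an interval of 0.06 to 0.28 (limma adjusted p = 0.15).

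All 14 ribosome assembly differences between DW71177 and OTX015 were above 0, from 0.01 to 0.23, with a median of 0.04. The median over the 6736 genes with a mean of at least 5 was also 0.04, and all 14 were read against the same 3 OTX015 arrays. With a variance trend on the mean level, limma called 2 of the 47 helicases between the 2 compounds (DDX21 and DHX32), and with the test kept to genes of mean 5 or more it called 3 (with DHX35).

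DW71177 and DW71374 differed in 18 helicases, 3 higher and 15 lower with DW71177, where 19.5% of all genes were called (9.98% higher and 9.51% lower). With a mean of at least 5, 43.6% of helicases and 37.2% of genes were called, and 38.5% and 18.4% were lower. OTX015 and DW71374 differed in 23 helicases, 3 higher and 20 lower with OTX015, where 25.2% of all genes were called (11.1% higher and 14% lower). There, with a mean of at least 5, 56.4% of helicases and 47.1% of genes were called, and 51.3% and 26.9% were lower. DDX21 led both comparisons, at -0.74 ± 0.053 for DW71177 less DW71374 and -0.91 ± 0.053 for OTX015 less DW71374 (limma adjusted p = 4.9e-07 and 3.3e-08). For DW71177 less DW71374, DDX10 gave -0.32 ± 0.086 (limma adjusted p = 0.017), a call lost without DW71177 replicate 3 or DW71374 replicate 2 (limma adjusted p of 0.076 to 0.077). DHX8 gave 0.29 ± 0.064 (limma adjusted p = 0.0050). Against DMSO, the 95% intervals of all 47 helicases with DW71374 lay within 1.5-fold, from a lowest difference of -0.15 (DDX60L) to a highest of 0.21 (DDX25).

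Pairs of close relatives among the members are set side by side here, and these pairs were picked after their values were seen. DDX50, the neighbour and paralog of DDX21, had 7.30, 7.35 and 7.26 with DMSO and 7.09, 7.18 and 7.26 with OTX015, and 7.13, 7.26 and 7.26 with DW71177. RVX208 gave 7.32, 7.28 and 7.25 and DW71374 gave 7.21, 7.28 and 7.30. Its OTX015 difference was -0.12, with an interval of -0.26 to 0.01 (limma adjusted p = 0.18), and that of DDX21 ran from -1.04 to -0.82. The difference between the changes of the 2 genes was not tested.

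DDX19A, an mRNA export helicase of the nuclear pore, had 7.29, 7.07 and 7.16 with DMSO, 6.45, 6.63 and 7.06 with OTX015, 6.89, 6.94 and 6.80 with DW71177, 7.03, 7.15 and 7.12 with RVX208 and 6.90, 7.08 and 7.15 with DW71374. DDX19B had 6.48, 6.53 and 6.51 with DMSO and 6.50, 6.50 and 6.49 with OTX015, 6.51, 6.50 and 6.58 with DW71177, 6.50, 6.51 and 6.50 with RVX208 and 6.50, 6.45 and 6.66 with DW71374. One OTX015 array of DDX19A was near DMSO and the others were well below. DDX19B held the identical value 6.504439 on DW71177 replicate 2, OTX015 replicates 1 and 2 and RVX208 replicate 1. The origin of such repeated values was not tested. DDX19A fell by 0.46 with OTX015 (limma adjusted p = 0.014), a call lost without DMSO replicate 1 or OTX015 replicate 1 or 2 (limma adjusted p between 0.053 and 0.071), while the DDX19B interval was -0.14 to 0.12. The 2 genes are near-identical in their coding sequence, so probes may read both. DDX60, the paralog of DDX60L, differed from DMSO by -0.10 with OTX015 and -0.12 with DW71177, did not pass, and was dim as well.

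**Figure D5:**
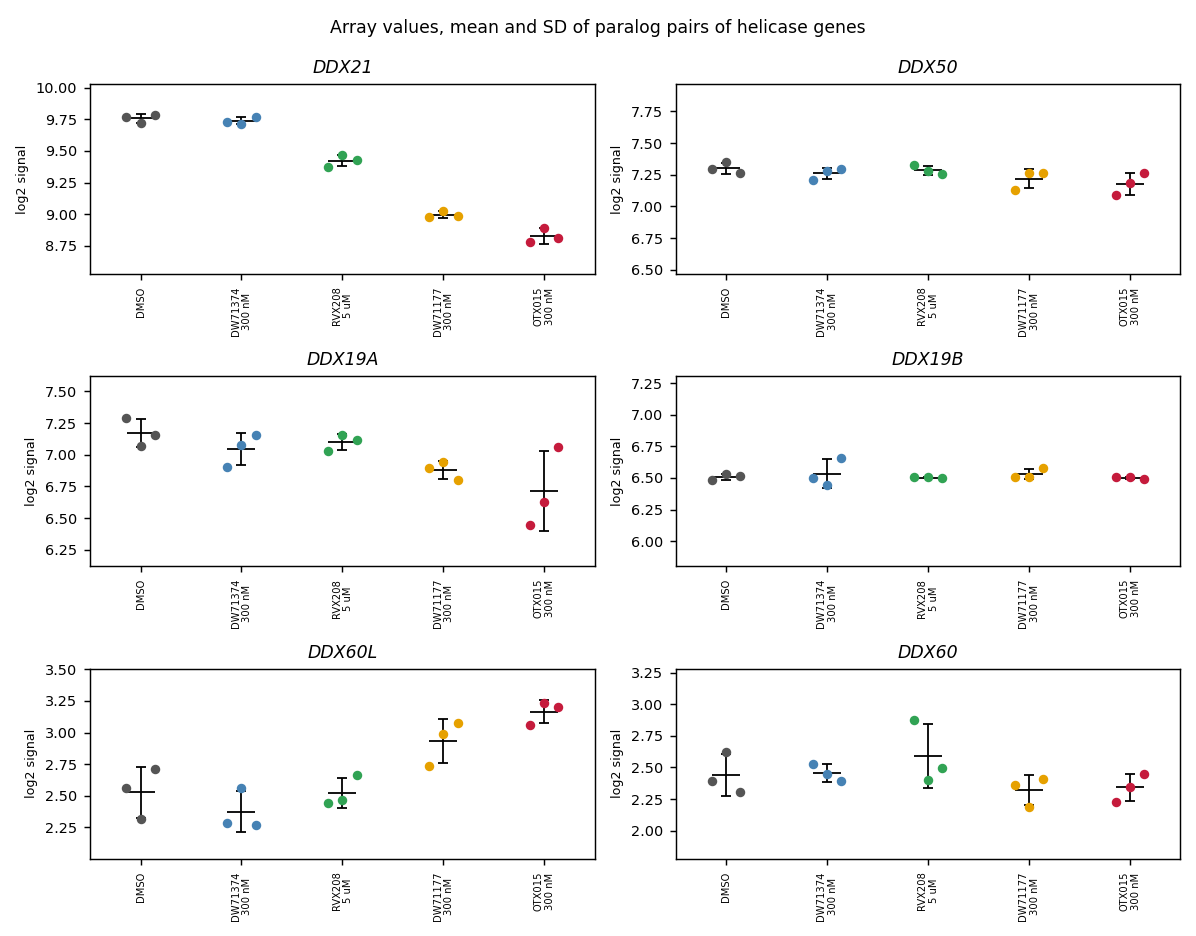
Log2 signal on each array (points, with group mean ± SD, n = 3) for the pairs DDX21 and DDX50, DDX19A and DDX19B, and DDX60L and DDX60 in the 5 groups. DDX21 drops from a DMSO mean of 9.76 to 8.83 with OTX015 while DDX50 differs by -0.12, and DDX60L goes up by 0.64 while DDX60 differs by -0.10.

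Related RNA helicases outside the naming rule, and proteins that work with the members or with such relatives, were counted from lists of their own. Of 12 measured related helicases, OTX015 and DW71177 each raised 2 and lowered 1, so 25.0% were called against 25.7% and 19.8% of all genes. All of the 12 but IFIH1 and TDRD9 had a mean of at least 5, and of genes with such a mean 47.8% and 37.7% were called. HELZ differed by 0.30 with OTX015 and 0.28 with DW71177, HELZ2, an interferon-induced helicase, by 0.51 and 0.43, and MTREX, the helicase that feeds the nuclear exosome, by -0.31 and -0.29. RVX208 raised HELZ by 0.20 (limma adjusted p = 0.033). Of 22 measured partner proteins, OTX015 raised 2 and lowered 6 and DW71177 raised 2 and lowered 4. With OTX015, 27.3% of the partners fell against 14.5% of all genes and 27.6% of genes with a mean of at least 5, a share near that of the bright genes, and with DW71177 18.2% fell against 9.88% and 18.9%. The partners' median difference with OTX015 was -0.084. GPATCH4, a G-patch protein that activates DHX15, fell 1.76-fold with OTX015 (-0.82 ± 0.079, limma adjusted p = 3e-06) and differed by -0.59 with DW71177 (limma adjusted p = 0.0001). CWC22, a spliceosome protein, differed by -0.49 with OTX015 and NOM1, a nucleolar protein, by -0.59. Of 12 measured partners of RNA sensing, OTX015 and DW71177 each raised 5 and lowered 2, with medians of 0.13 and 0.17, and RVX208 raised 2. The share raised was 41.7% with OTX015 and with DW71177, where 11.2% and 9.95% of all genes rose. Of genes with a mean of at least 5, 20.2% and 18.8% rose. The share lowered was 16.7% with both, where 14.5% and 9.88% of all genes and 27.6% and 18.9% of those with a mean of at least 5 fell. With RVX208, 16.7% rose, against 3.41% of all genes and 6.77% of those with a mean of at least 5. EIF2AK2, the kinase that senses double-stranded RNA, rose in all 3 groups, by 0.67 (OTX015), 0.78 (DW71177) and 0.37 (RVX208). IRF7 had the largest rise of the 12 with OTX015 (0.84) and with RVX208 (0.52). The 2 that fell with OTX015 and with DW71177 were TRAF3 and the dim TLR3. TRAF3 had the deepest fall with OTX015 (-0.44) and TLR3 with DW71177 (-0.47). With DW71374, limma called 0 of the genes in any of these lists.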

How the data were processed

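RNA from MV4-11 cells was read on 15 Affymetrix Human Gene 2.0 ST arrays, 3 arrays in each of 5 groups, and groups were taken from the sample titles. The deposited table holds log2 signals that the authors had already normalized, judged from the values of the deposited file; the normalization method is not given in the sources used here. Of 44629 features, 15835 name 1 gene and all of these matched the RefSeq gene table (GRCh38.p14). The other 28794 name no gene or more than 1 gene and were not used. Each of 14812 genes was read at its feature of highest mean over 15 arrays. DDX3X, DDX11, DDX18, DDX27, DDX39A, DDX39B and DDX58 were not analysed here.

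limma 3.58.1 in R 4.3.3 fitted the 5 group means in 1 model with 10 residual degrees of freedom, for 4 contrasts with DMSO and 3 between compounds at 300 nM, with no added low-value filter; the fit was tested on simulated data. The number of arrays limits the precision. Genes named in full were the 4 largest falls and rises per compound among called members whose arrays do not overlap with DMSO, members called between DW71177 and OTX015 (0), and DDX18, DDX21, DDX10, DDX5, DDX3X, DHX9, DHX15, DHX33, DHX58 and DDX58 where measured; DDX50, DDX19A, DDX19B, DDX60, DDX54, DHX35 and DHX32 and other members with values were added after seeing them. The members, roles and lists were chosen with earlier results of these data known. Alternatives changed the scaling, variance model, arrays and gene filter, and left out each array in turn.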

Additional observations from a re-analysis of the deposited data

How the results depend on the processing

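The 47 helicases in 7 comparisons gave 3563 values under other settings and 4935 with any array left out, and none changed sign while called; 93 and 132 calls were lost and 65 and 30 gained. A test against a 1.1-fold change called 12 helicases for OTX015 (24 in the main fit), 8 for DW71177 (16), 0 for RVX208 (3), 10 for DW71177 less DW71374 (18) and 14 for OTX015 less DW71374 (23). A fit on only the arrays compared called 10 for DW71177 and 1 for RVX208. It lost 7 of the 24 OTX015 calls, 6 calls for DW71177 less DW71374 and 6 for OTX015 less DW71374, and gained 0 in each. For RVX208, a variance trend called 7, array weights 5, array median centring 1 and the genes of mean 5 or more 7. For DW71177 less OTX015, the trend called 2 and the genes of mean 5 or more 3. The median difference was -0.24 for OTX015 and -0.046 for RVX208 over genes of mean 5 or more, and -0.010 for DW71374 after quantile normalization.

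With any array left out, limma called 20 to 24 helicases for OTX015, 12 to 18 for DW71177, 0 to 0 for DW71374, 1 to 4 for RVX208 (1 without DMSO replicate 1 or 3 or RVX208 replicate 1 or 3), 0 to 0 for DW71177 less OTX015, 12 to 17 for DW71177 less DW71374 and 20 to 25 for OTX015 less DW71374. The medians ran from -0.151 to -0.0887 for OTX015, -0.104 to -0.0855 for DW71177, -0.0244 to -0.0124 for DW71374 and -0.0347 to -0.0174 for RVX208. Replicate numbers did not pair the arrays: over 30 pairs of groups and numbers, deviations of same-numbered arrays correlated at -0.087 to 0.098. With the replicate block, limma called 23 helicases for OTX015, 18 for DW71177, 2 for RVX208, 0 for DW71374, 0 for DW71177 less OTX015, 16 for DW71177 less DW71374 and 23 for OTX015 less DW71374. The number of arrays, and signals under 5 for 8 members, limit what small changes could be called.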

Other observations

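Outside the 47 protein-coding members, 6 further DDX or DHX symbols on the array were of other biotypes, and limma called 0 of them against DMSO with any compound, with 1 at an unadjusted p under 0.05 for DW71177, 1 for DW71374 and 0 for OTX015 and RVX208. The 8 features of DHX16, of which 4 hold the same values, differed from DMSO by -0.08 to -0.03 with OTX015. With DW71177 they differed by -0.02 to 0.03, so the sign there depends on the feature read, and none of these differences was called.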
